A study of Mus musculus with 8 samples.

Results

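Regions of open chromatin that were detected in both libraries of mutant thymocytes and in neither wild-type library are described here. ATAC-seq, in which a transposase cuts accessible DNA, had been run on DN3 thymocytes of C57BL/6 mice. DN3 thymocytes are early T-cell precursors, at the stage where the pre-T-cell receptor is tested. The mutant cells were homozygous for mutations at GATA sites 1 and 2 of N-Me, a distal enhancer through which Notch activates Myc. The wild-type cells had an intact N-Me, and there were 2 libraries of each genotype. The series also holds 4 leukaemia samples, which were not analysed here. Peaks of the 4 DN3 lists on the 19 autosomes were merged wherever they shared 1 bp, which gave 176413 regions. Of these, 104628 had a peak in both mutant lists, and 1813 of them had no peak in either wild-type list. These 1813 mutant-only regions were thus chosen by the calls themselves, so their absence from wild type is a definition and not a finding.

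The opening of a stretch of DNA usually requires transcription factors that displace or bind nucleosomes. GATA3, the GATA factor of T-cell precursors, is needed for T-cell commitment and binds many distal elements. N-Me is used by T cells at the stages when Notch signalling is strong. Accessible regions far from gene ends include enhancers, which act on genes over long distances.

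The labelled cell type was checked against marker genes. All 10 DN3 markers, among them Ptcra, Il2ra, Rag1, Notch1 and Bcl11b, had a peak at most 1 kb from a gene end in all 4 libraries. Of 20 markers of B, myeloid, erythroid, stromal and NK cells, 10 had a peak there in each mutant library, against 13 and 14 in the wild-type libraries. The defining erythroid genes Gata1 and Hba-a1 were not called in any library, and neither were Ms4a1, Elane, Ncr1 and Klrd1. Csf1r and Mpo of myeloid cells and Psmb11 of thymic epithelium were called in neither mutant library and in both wild-type libraries. The mutant lists held 118238 and 116435 peaks, against 165763 and 153032 in the wild-type lists, and their median peak widths were 445 and 422 bp, against 284 and 303 bp. The part of these list differences in the results below was not tested. Read counts are not part of these lists, so depth is unknown, and a region without a peak was only not detected at that depth. The labels do not say that the 2 libraries of a genotype came from separate animals.

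Of the 1813 regions, 14 (0.772%) overlapped a RefSeq promoter window, which runs from 250 bases before to 50 bases after a gene start. Of the 104628 regions of both mutant libraries, 11967 (11.4%) did. They reached 16 windows of 15 genes, of which 11 make long non-coding RNAs. For the other 4, which encode proteins, the 250 bases before the start are shown, since they carry the only sequence used here; they were picked after their values were seen. Capitals mark the bases covered by the mutant-only region. Sequences are from RefSeq, build GRCm38.p6, 5′ to 3′ on the strand of the gene.
Serpina3g, plus strand, chr12:104235897-104236146: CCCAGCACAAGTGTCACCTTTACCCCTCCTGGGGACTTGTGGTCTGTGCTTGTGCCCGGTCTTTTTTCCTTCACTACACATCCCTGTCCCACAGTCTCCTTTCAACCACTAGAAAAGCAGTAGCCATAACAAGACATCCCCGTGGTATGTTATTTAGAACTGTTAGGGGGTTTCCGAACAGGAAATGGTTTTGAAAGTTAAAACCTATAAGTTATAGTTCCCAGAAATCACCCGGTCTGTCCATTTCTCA
Pdcd1lg2, plus strand, chr19:29410669-29410918: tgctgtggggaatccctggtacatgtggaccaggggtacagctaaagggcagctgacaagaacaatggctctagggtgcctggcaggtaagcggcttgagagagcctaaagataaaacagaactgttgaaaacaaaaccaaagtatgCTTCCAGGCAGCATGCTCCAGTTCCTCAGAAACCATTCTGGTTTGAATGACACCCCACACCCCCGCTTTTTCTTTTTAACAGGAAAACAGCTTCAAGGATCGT
Shisa5, plus strand, chr9:109052604-109052853: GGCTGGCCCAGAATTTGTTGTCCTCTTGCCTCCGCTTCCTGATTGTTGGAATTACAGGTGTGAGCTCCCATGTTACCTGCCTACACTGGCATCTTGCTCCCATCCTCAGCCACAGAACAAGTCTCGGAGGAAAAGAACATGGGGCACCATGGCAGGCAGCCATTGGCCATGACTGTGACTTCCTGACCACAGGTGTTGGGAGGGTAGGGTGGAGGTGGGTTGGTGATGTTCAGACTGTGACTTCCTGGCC
Pax7, minus strand, chr4:139832969-139833218: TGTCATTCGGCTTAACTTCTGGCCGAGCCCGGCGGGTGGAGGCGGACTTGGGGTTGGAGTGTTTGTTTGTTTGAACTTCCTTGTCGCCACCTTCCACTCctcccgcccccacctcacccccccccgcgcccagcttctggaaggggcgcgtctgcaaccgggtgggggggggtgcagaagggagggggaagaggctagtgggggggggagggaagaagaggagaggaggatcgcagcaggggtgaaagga

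The Serpina3g region was the strongest of these 4. Serpina3g encodes a protease inhibitor expressed in activated T cells. Its region was 940 bp wide and covered all 250 bases shown, with a fold enrichment of 2.84 in mutant 1 and 3.37 in mutant 2. Fold enrichment is the authors' own ratio of a peak's read pileup to its local background, and it describes a peak within its list. The closest wild-type peaks lay 25371 bp away in wild type 1 and 83763 bp away in wild type 2. At Pdcd1lg2, which encodes the PD-1 ligand PD-L2, the region covered the last 103 of these bases with fold 1.82 and 2.05. At Shisa5, a gene of the endoplasmic reticulum, the region was 832 bp wide with fold 1.53 and 1.41, and wild-type peaks lay 362 and 336 bp away. At Pax7, a muscle progenitor factor, 99 bases were covered with fold 1.81 and 1.82. Wild-type peaks lay 199 and 1282 bp from the Pax7 region and 1407 and 1577 bp from the Pdcd1lg2 region. Among these 4, the region at Serpina3g thus lay furthest from wild-type peaks.

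Sequence motifs were counted in these few windows as a description. The GATA motif, searched as AGATAA or TGATAA on both strands in the 250 upstream bases, was in 2 of the 16 overlapped windows (12.5%), against 16.6% of all 31363 autosomal windows. The Pdcd1lg2 window is 1 of these 2, with its match outside the covered bases. The other is that of Gm35710, where the match lies inside the covered bases of a region with fold 2.16 and 2.4. The RUNX motif TGTGGT was in 2 windows (12.5%), against 14% of all. The E-protein motif CAGCTG was in 5 (31.2%), against 13.0%, and the RBPJ motif TGGGAA in 6 (37.5%), against 21.7%. TCF1 (CTTTGA) was in 3 of 16 (18.75%), against 13.8% of all. ETS (CCGGAA) was in 2 (12.5%), against 12.2%, and the Myc E-box (CACGTG) in 1 (6.25%), against 6.02%. The 2 windows with ETS letters are overlapping windows of Gm34629 that share the same site. The RUNX letters stand inside the covered bases at Serpina3g and Shisa5. Some other matches stand outside the covered bases. These are the E-protein letters at Gm14051 and Pdcd1lg2 and the RBPJ letters at Gm33073 and Gm14051. The TCF1 letters at Gm14051 and Gm41214 and the Myc E-box at Gm35710 are outside as well. A match is a string of letters and not a shown binding site.

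Most mutant-only regions were weak peaks. Fold in mutant 1 ran from 1.08 to 7.27 with a median of 2.17, and in mutant 2 from 1.04 to 7.12 with a median of 2.37. The median over the whole list was 3.20 in mutant 1 and 3.38 in mutant 2, and the median mutant-only region stood at percentile 18.0 of fold in mutant 1 and 19.3 in mutant 2. The median −log10 q was 2.57 and 2.77, against 11.9 and 11.2 over the whole lists. The lower of the 2 folds was under 2 in 508 regions (28.0%), from 2 to under 3 in 1216 (67.1%), and 3 or more in 89 (4.91%). The share of mutant-only regions was lower among regions of higher fold. They were 3.97% of the 43479 regions of both mutant libraries with a lower fold under 3, 0.146% of the 61149 at 3 or more and 0.029% of the 37918 at 4 or more. Their share of all 104628 regions was 1.73%. The opposite class, called in both wild-type lists and in neither mutant list, held 19850 regions, or 15% of the 132141 that both wild-type libraries had. Each call was made on the same 4 lists that chose the members, so these shares are descriptions.

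The regions were also narrow. Their median width was 254 bp (quartiles 180 and 369 bp), against 609 bp for the 100024 regions called in all 4 libraries and 176 bp for regions called only in wild type. The rule makes the peaks of the 2 mutant libraries overlap in each region, but their lengths could differ, with medians over these peaks of 189 bp for mutant 1 and 195 bp for mutant 2. Across these regions the folds of mutant 1 and mutant 2 had a Spearman correlation of 0.74 (Pearson r = 0.76, n = 1813), against a Spearman value of 0.95 over the regions called in all 4 libraries. The points share their libraries and background, and the range of the first set is narrow. The widest, 1988 bp, lay 24.3 kb from an end of Cd47, which encodes the "do not eat me" signal of blood cells, at chromosome 16, 49936768 to 49938755. Its fold was 3.19 and 2.98. The next widest were at Zfp64 (1364 bp) and inside Ap3b1 (1187 bp, fold 3.54 and 4.56), a gene of vesicle sorting.

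**Figure D1:**
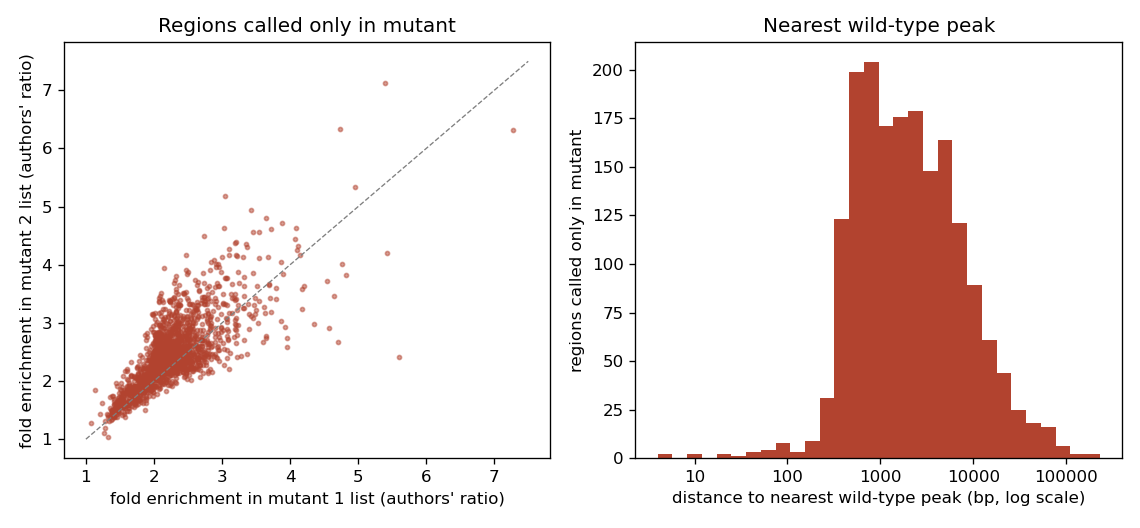
Left, the authors' fold enrichment of the 1813 mutant-only regions in mutant 1 (x axis) and mutant 2 (y axis), 1 point per region, with equal values on the dashed line. Right, the number of regions (y axis) by distance to the nearest wild-type peak (x axis, bp, log scale); most points on the left lie under a fold of 3 in both, and the median distance on the right is 1867 bp.

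Wild-type peaks were usually near. The median distance to the nearest one was 1867 bp (quartiles 744 and 4998 bp). A wild-type peak lay within 500 bp of 229 regions (12.6%) and within 1 kb of 622 (34.3%), while 214 (11.8%) had none within 10 kb and 6 had none within 100 kb. Regions called only in wild type stood somewhat further from mutant peaks, at a median of 2882.5 bp. Just inside the overlap rule were regions in Mgat4a, a glycosyltransferase gene, near Kctd1, a gene of a BTB-domain repressor, and in Ube2d3, a ubiquitin-conjugating enzyme gene, with wild-type peaks 4, 5 and 9 bp away. Their fold was 1.33 and 1.41 at Mgat4a, 1.42 and 1.51 at Kctd1 and 2.34 and 2.24 at Ube2d3. Just outside it were regions nearest to Nck2, Agfg1 and Plekha7, where a wild-type peak of fold 1.72, 2.12 and 1.97 shared 1, 2 and 3 bp with the mutant peaks. Values on either side of the rule were thus alike in size, with mutant folds of 1.88 and 1.7 at Nck2, 2.02 and 2.20 at Agfg1 and 1.84 and 1.92 at Plekha7.

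A choice made with 1 library of each genotype was then read in the other 2. Of 6180 regions called in mutant 1 and not in wild type 1, 42.7% were called in mutant 2 and 26.0% in wild type 2. Over the 4 such pairs of libraries, the other mutant library had 42.7% to 49.4% of the chosen regions and the other wild-type library had 24.8% to 44.0%. In each of the 4 pairs the share was higher in the mutant library that had not been used. The 4 pairs come from the same 4 lists and each includes the 1813 mutant-only regions, so they are not separate checks. Each excess sets these 1813 against the regions called only in the chosen mutant and the other wild-type library. Those numbered 781 and 1511 for mutant 1 and 585 and 1401 for mutant 2. The excess thus restates the member count and gives it no support. The mutant share was higher by 3.75 and 5.39 percentage points where wild type 2 was used for choosing, and by 16.7 and 21.6 where wild type 1 was. In the mirror case, of regions called in 1 wild-type library and not in 1 mutant library, 15.2% to 19.5% were called in the other mutant library and 54.6% to 70.5% in the other wild-type library. The wild-type lists are the longer ones, and their part in these shares was not tested.

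In their place along genes, mutant-only regions were mostly distal. Of the 1813, 75 (4.14%, exact 95% interval 3.27 to 5.16) lay at most 1 kb from either end of an annotated protein-coding gene, against 15.7% of all regions of both mutant libraries and 5.69% of regions called only in wild type. Gene-end regions are usually strong, so a set of limited strength was added: the 41755 regions of both mutant libraries with a lower fold under 3 and a wild-type peak. In that set 8.52% lay at a gene end. Its strength was not matched, since the median lower fold was 2.15 in mutant-only regions and 2.36 in this set, and the median width 254 bp and 410 bp. Distances over 50 kb showed the opposite order. Of mutant-only regions, 553 (30.5%, 28.4 to 32.7) lay over 50 to 500 kb from a gene end and 30 (1.65%) lay over 500 kb away, against 20.7% and 0.639% in that set and 20.9% and 0.826% of regions called only in wild type. The median distance to a gene end was 25.3 kb, against 14.5 kb in that set, 13.1 kb for regions called in all 4 libraries and 15.7 kb for regions called only in wild type.

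Inside and outside of genes the mutant-only regions differed less from the rest. Outside any annotated gene were 546 regions (30.1%, 28.0 to 32.3), against 28.8% of the regions of both mutant libraries and 33.7% of regions called only in wild type. Protein-coding genes held 1132 (62.4%), against 62.1% and 57.6%. Long non-coding RNA genes overlapped 153 of them (8.44%, 7.20 to 9.81), against 12.2% and 11.1%. Exons and introns were not told apart. Of annotated microRNA hairpins, that of Mir21c on chromosome 8, named after its values were seen, was overlapped over 71 bp by a region with fold 2.75 and 3.14 that had its closest wild-type peaks 6167 and 4921 bp away.

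**Figure D2:**
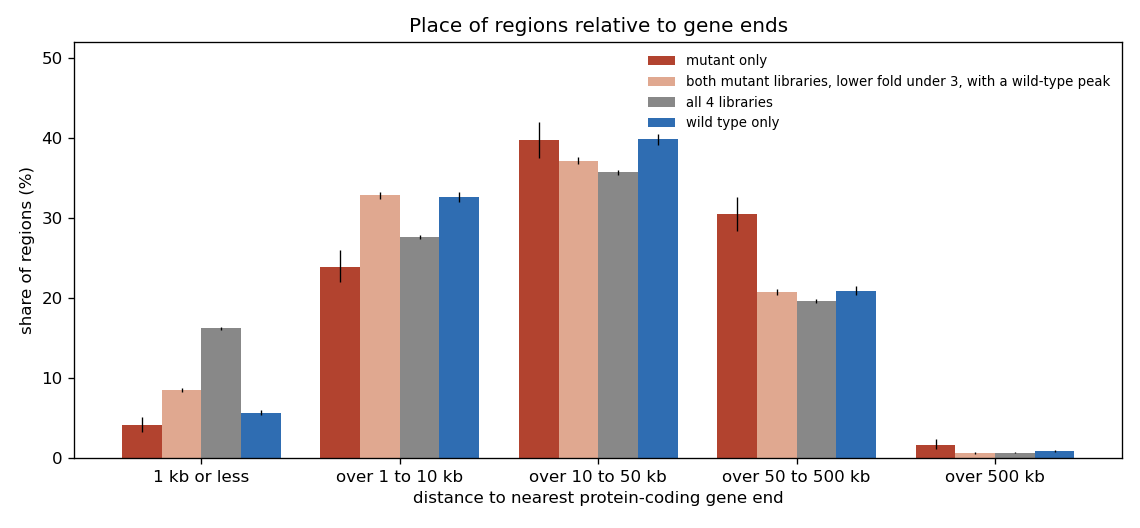
Share of regions (y axis, %) by distance to the nearest protein-coding gene end (x axis), for regions called only in mutant, for weak regions of both mutant libraries with a wild-type peak, for regions of all 4 libraries and for regions called only in wild type. Bars are shares and lines are exact 95% binomial intervals, which treat neighbouring regions as independent; the mutant-only class has 4.14% at 1 kb or less and 30.5% over 50 to 500 kb.

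Every autosome carried mutant-only regions, from 64 to 142 each. Their share of the regions of both mutant libraries was highest on chromosome 13 (127 of 4971, 2.55%, 95% interval 2.13 to 3.03), chromosome 19 (81 of 3279, 2.47%, 1.97 to 3.06) and chromosome 3 (112 of 5219, 2.15%, 1.77 to 2.58). It was lowest on chromosome 9 (71 of 5795, 1.23%, 0.958 to 1.54), chromosome 5 (88 of 6807, 1.29%, 1.04 to 1.59) and chromosome 8 (65 of 4984, 1.30%, 1.01 to 1.66). The 1.73% of all autosomes lay between these groups. Chromosome 15, which carries Myc and N-Me, had 94 of 4573 (2.06%, 1.66 to 2.51), within the range of the others. On chromosomes 9, 5 and 8 regions called only in wild type made up 16.7% to 16.9%, and on 13, 19 and 3 they made up 13.4% to 14.2%.

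**Figure D3:**
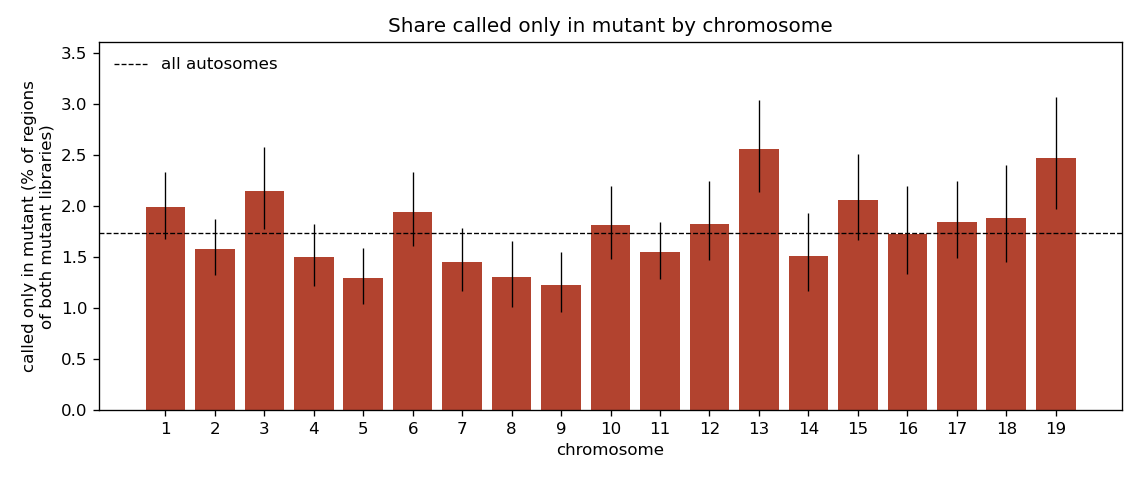
Share of the regions of both mutant libraries that were called only in mutant (y axis, %), by autosome (x axis), with exact 95% binomial intervals and the share over all autosomes as a dashed line. The bars range from 1.23% on chromosome 9 to 2.55% on chromosome 13.

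At a finer scale the share was uneven. In 470 bins of 5 Mb with at least 20 regions of both mutant libraries, its median was 1.55% (quartiles 0.889% and 2.60%). Of these bins, 51 held no mutant-only region and 22 exceeded 5%. The highest share was in the bin from 85 to 90 Mb of chromosome 13, with 11 of 61 regions (18.0%, 9.36 to 29.98). There, 5 of the 11 were nearest to Rasa1, which encodes a GTPase-activating protein that turns Ras off, and 3 to Edil3, an integrin-binding matrix gene. The bin from 105 to 110 Mb of chromosome 10 followed with 8 of 71 (11.3%), 3 of them nearest to Ppp1r12a, a myosin phosphatase subunit, and 3 to Tmtc2. The bin from 10 to 15 Mb of chromosome 6 had 5 of 49 (10.2%), of which 4 were nearest to Phf14, a chromatin reader. Both other leading bins were on chromosome 15, from 40 to 45 Mb with 13 of 131 (9.92%, 5.39 to 16.4) and from 60 to 65 Mb with 19 of 202 (9.41%, 5.76 to 14.3). The first held Angpt1 and Abra and the second held Myc. Across the 470 bins the share called only in mutant had a Spearman correlation of −0.28 with the share called only in wild type; the bins share the same 4 lists.

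Mutant-only regions were in places neighbours of each other. Ordered along the chromosomes among all regions of both mutant libraries, the region after a mutant-only one was itself mutant-only in 87 of 1813 cases (4.799%), 2.77 times the overall share of 1.73%. The same ratio was 1.23 for regions called only in wild type, at 18.4% against 15%. The longest unbroken run of mutant-only regions was 4. With clusters defined as 3 or more mutant-only regions with gaps of 100 kb or less, 80 clusters held 301 regions (16.6%) on all 19 autosomes. The other 1512 stood alone or in pairs. No share of another class is given beside the 16.6%. It was 1.94% in a setting with 775 mutant-only regions and 53.7% in one with 7235. The 16.6% alone therefore does not show that these regions cluster more than others. Cluster spans ran from 8.95 to 326 kb with a median of 94.9 kb, and 51 clusters had 3 regions, 14 had 4 and 15 had 5 or more. Regions in clusters had a median lower fold of 2.09, against 2.16 outside clusters. Within the 80 spans, 115 of the 1112 regions called in both wild-type libraries lacked a mutant peak (10.3%, 8.61 to 12.3), below the 15% of all autosomes, and 37 spans held none.

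The cluster with most members lay over Ptprk and Themis on chromosome 10, from 28588093 to 28775655. Ptprk encodes a receptor tyrosine phosphatase and Themis a T-cell protein required for thymocyte selection. Of its 27 regions of both mutant libraries, 9 were mutant-only (33.3%) and 16 were called in all 4 libraries, and none of the 18 regions called in both wild-type lists was specific to wild type. Inside Themis stood 7 of the 9. The strongest of these by lower fold, from 28717991 to 28718497, had fold 2.71 in mutant 1 and 2.70 in mutant 2, with the closest wild-type peaks 7082 and 7724 bp away. A second, from 28765526 to 28765923, had fold 2.70 and 2.75 with wild-type peaks 13936 and 13671 bp away. The weakest of the cluster, from 28672581 to 28672755, had fold 1.40 and 1.47 and a wild-type peak 723 bp away. The gene body thus carried both isolated regions and regions close to shared peaks.

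Next came the class III and class I part of the major histocompatibility complex on chromosome 17, from 35064251 to 35356295, with 8 mutant-only regions of 65 (12.3%). This gene-dense stretch includes Tnf, Lta and Ltb, which encode tumour necrosis factor cytokines, and the class I gene H2-D1. Its strongest region, from 35097162 to 35097463 inside Abhd16a, had fold 3.21 and 3.09 with −log10 q of 14.94 and 9.93. The other 7 had a lower fold of 1.39 to 1.92. In contrast to the Themis span, 57 of the 65 regions were called in all 4 libraries and 5 regions were called only in wild type.

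Within Slc9a9, a gene for an endosomal sodium and proton exchanger on chromosome 9, 8 of 26 regions (30.8%) were mutant-only over 326 kb, from 94839216 to 95165048. Their fold ran from 1.98 to 2.82 in mutant 1 and from 2.22 to 2.96 in mutant 2, and none of 17 regions found in both wild-type lists was specific to wild type. Within Angpt1, which encodes the ligand of the receptor Tie2, 7 of 35 regions (20%) were mutant-only, from 42457088 to 42664972 on chromosome 15. Here the widest was 1054 bp, with fold 2.13 and 2.92. Within Cblb, which encodes a ubiquitin ligase that restrains T-cell activation, 6 of 19 regions (31.6%) were mutant-only, from 52074328 to 52172559 on chromosome 16. Of these 6, 4 lay from 52160132 to 52172559, with fold of 1.97 to 2.42 in mutant 1 and 1.87 to 2.3 in mutant 2. Among peaks with −log10 q of 5 or more, 2 regions of the histocompatibility cluster remained mutant-only and none of the other 4 clusters. At a fold of 3 or more, 1 region of that cluster remained and none of the others.

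**Figure D4:**
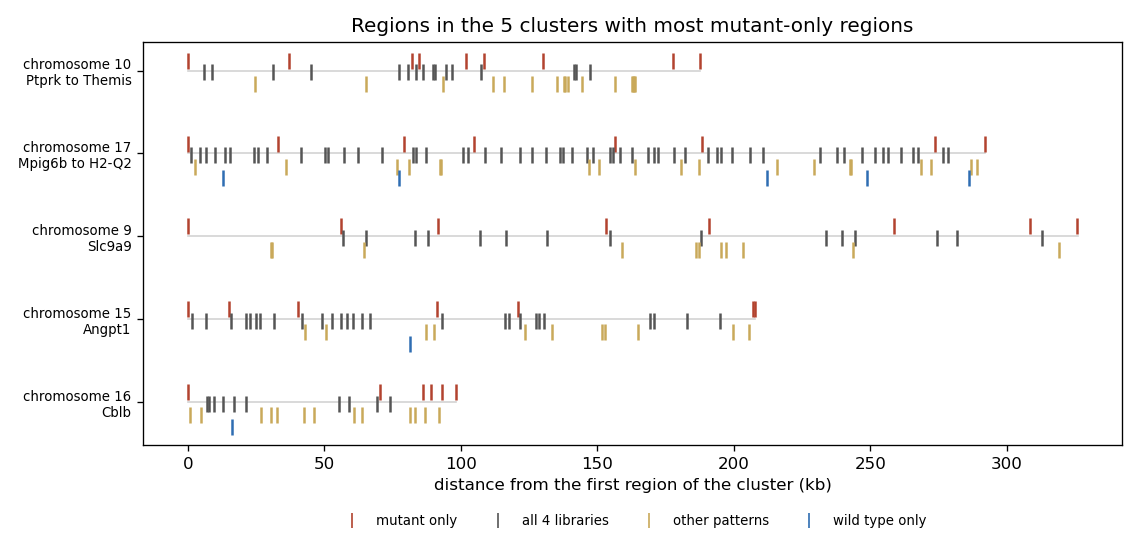
Centres of all regions in the spans of the 5 clusters with most mutant-only regions, by distance from the first region of the cluster (x axis, kb), 1 row per cluster. Ticks mark regions called only in mutant, in all 4 libraries, in other patterns and only in wild type; the rows of Ptprk to Themis and of Slc9a9 hold no region called only in wild type.

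The desert downstream of Myc held 10 mutant-only regions of 102 regions of both mutant libraries within 2 Mb of the start of Myc (9.80%, against 1.73% of all). Myc encodes the growth-promoting transcription factor that N-Me serves. All 10 lay between Myc and N-Me. N-Me was taken as the region of all 4 libraries closest to its known distance from Myc, at chromosome 15, 63254999 to 63256647. Its call in the mutant lists follows from that choice and is not a result. The mutant-only regions were 10 of the 68 regions between Myc and N-Me, against 0 of 33 beyond N-Me, where a count of 0 allows up to 9.09%. A count of 6 regions in the interval was called only in wild type. The rule that chose the members fixes their calls, and these counts come from the same lists. None of the 10 remained mutant-only among peaks with −log10 q of 5 or more or with a fold of 3 or more, where 5 and 4 other regions were counted. The count was 17 when the peaks of each list, mutant lists included, had to cover 50% of a region. It was 23 with equal numbers of peaks per list and 21 without mutant 2.

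Of the 10, 6 formed a cluster from 62699764 to 62868298, in which no annotated protein-coding gene lies and 16 regions of both mutant libraries were called. The strongest by fold in mutant 1 was the one from 62738806 to 62739116, with fold 2.88 and 2.43 and −log10 q of 7.23 and 3.08, and with wild-type peaks 7243 and 7200 bp away. Its neighbour from 62734982 to 62735344 had the lowest fold of the 10, at 1.57 and 1.59. The region from 62392853 to 62393123 had fold 2.76 and 2.49 and lay 408 kb from the start of Myc. The one nearest to N-Me, from 62986697 to 62987194, had fold 2.70 and 2.66, and its closest wild-type peak was 19356 bp away. The remaining 6 had folds of 1.88 to 2.25 in mutant 1 and 2.11 to 2.56 in mutant 2. The 10 regions were thus all weak, and 4 of them had a wild-type peak within 2222 bp in at least 1 library.

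By nearest gene, 1354 of 20665 protein-coding genes on autosomes had the end closest to at least 1 mutant-only region, at any distance. A single region was found at 1063, 2 at 202 and 3 or more at 89. Myc led with 11 regions of 70 that had it as nearest gene (15.7%), none of them inside the gene. Cblb had 10 of 75 (13.3%), 6 of them inside it. Foxp1, a forkhead factor that keeps naive T cells quiescent, had 8 of 109 (7.34%). Rapgef2, an activator of the GTPase Rap1, had 8 of 89 (8.99%), and Slc9a9 had 8 of 53 (15.1%). The share called only in wild type around the same genes was 9.84% for Myc, 3.23% for Cblb, 9.76% for Foxp1, 9.30% for Rapgef2 and 2.33% for Slc9a9, each below the 15% of all autosomes. Gata3, chosen after its values were seen because its product binds GATA sites, had 6 of 81 (7.41%), all outside the gene and 52.5 to 901 kb from its end, with a lower fold of 1.82 to 2.40.

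Genes of the T-cell programme were compared as lists, with each region given to the gene whose end was nearest within 50 kb. Of all 82836 regions of both mutant libraries so placed, 1230 (1.48%) were mutant-only. Near 25 T-lineage transcription factors, 19 of 494 were mutant-only (3.85%, 2.33 to 5.94), spread over 10 of the genes. Bcl11b, which fixes T-cell commitment, had 3 of 44. Tcf12, an E protein, had 3 of 22 and Zeb1, a zinc-finger repressor, had 3 of 17. Ikzf2, Ikzf3 and Lef1 had 2 each, and Id3, Myb, Satb1 and Tox had 1 each. All 19 had a lower fold under 3, where the list's share was 5.74% of 331, against 3.45% of all 34002 weak regions within 50 kb of a gene end. Of its regions in both wild-type lists, 12.4% lacked a mutant peak, against 14.8% of regions within 50 kb of a gene end.

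The strongest region of this list lay inside Zeb1, 25.6 kb from its end, with fold 2.78 and 3.41 and wild-type peaks 609 and 2377 bp away. Inside Tcf12 a region on chromosome 9, 71879917 to 71880249, had fold 2.51 and 2.97 with wild-type peaks 4795 and 4821 bp away. Inside Ikzf3, which encodes Aiolos, a region on chromosome 11, 98506145 to 98506401, had fold 2.48 and 3.06. The region near Tox, a factor needed for the CD4 T-cell lineage, lay outside genes at chromosome 4, 7032576 to 7033299, with fold 2.42 and 2.94. Mutant 2 had the higher fold at all 4, as it had in most of the 1813 regions (mutant 1 was higher in 487, or 26.9%).

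Late thymocyte genes had 6 of 129 (4.65%, 1.73 to 9.85), of which Themis alone had 5 of 21 and Klf2, a factor of thymic exit, 1 of 9. Pre-TCR and TCR signalling genes had 2 of 274 (0.730%, 0.0885 to 2.61), 1 near Prkcq and 1 near Rasgrp1, which activate NF-κB and Ras signalling. The Notch list had 3 of 192 (1.56%), 2 at Il2ra and 1 inside Notch1, with folds of 1.46 to 1.88 in mutant 1 and 1.56 to 1.75 in mutant 2. The region inside Notch1, from 26474917 to 26475118 on chromosome 2, had fold 1.55 and 1.56 and wild-type peaks 385 and 285 bp away. Antigen receptor recombination genes had 2 of 51 (3.92%), both near Lig4, the DNA ligase of end joining, and the stronger had fold 3.13 and 3.49. The Th2 list had 1 of 50 (2%), 20.2 kb from Il5, with fold 1.82 and 1.86.

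Mutant-only regions in the remaining lists were read against the 1.48% of all regions within 50 kb. None was found near NK, ILC and gamma-delta genes (0 of 99, which allows up to 3.03%), B cell genes (0 of 45, up to 6.67%) or myeloid genes (0 of 75, up to 4%). Early progenitor and leukaemia genes had 3 of 131 (2.29%), at Erg, Mycn and Flt3, and the one near Erg had fold 2.64 and 3.19. Neuronal adhesion and synapse genes had 1 of 65 (1.54%). Myc targets and growth genes had 1 of 96 (1.04%), near the transferrin receptor gene Tfrc, with fold 2.02 and 2.15. The intervals of these lists include the 1.48% of all regions within 50 kb, while that of the T-lineage factors and that of the late thymocyte genes lie above it. The latter rests on Themis, which held 5 of the 6 late thymocyte regions, so it describes that locus and not the list. The intervals treat regions as independent, cover counting error only and carry no test.

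**Figure D5:**
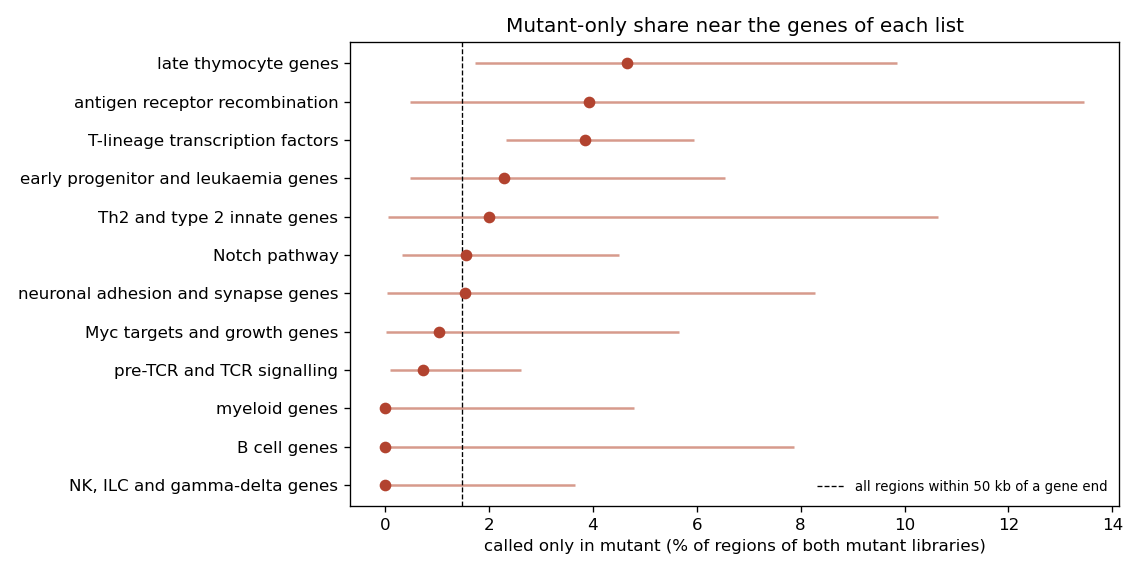
Share of the regions of both mutant libraries that were called only in mutant (x axis, %), for regions within 50 kb of the genes of each list, with exact 95% binomial intervals. The dashed line is the 1.48% of all regions within 50 kb of a gene end. Late thymocyte genes (4.65%), recombination genes (3.92%) and T-lineage transcription factors (3.85%) have the highest shares. Themis holds 5 of the 6 late thymocyte regions, and both recombination regions are near Lig4.

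The strongest mutant-only regions lay elsewhere. Of the 1813, 11 reached a fold of 4 in both mutant lists. The leading one lay outside annotated genes at chromosome 5, 147945178 to 147945613, 11.7 kb from an end of Mtus2, a microtubule-associated gene. It had fold 7.27 and 6.31 and −log10 q of 38.69 and 25.21, with wild-type peaks 5562 and 5664 bp away. Inside Rhobtb3, a gene of a BTB-domain protein, a region of 1138 bp had fold 5.39 and 7.12 and its closest wild-type peaks were 10022 bp away in both lists. Inside Spef2, a gene of the sperm tail, the fold was 4.95 and 5.33, with wild-type peaks 1538 and 13502 bp away. Inside Drc3, a gene of motile cilia, a region of 90 bp had fold 4.73 and 6.34.

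Of the next 6, those nearest to Sh3bp5l, Klf14 and Hint1 lay outside genes, and those nearest to Sugct, Pcdh7 and Elmo1 lay inside them. At Sh3bp5l the fold was 5.42 and 4.20. At Elmo1, whose product activates Rac in cell migration, it was 4.07 and 4.44, at chromosome 13, 20261664 to 20262042. At the other 4 the lower fold was 4.09 to 4.14. Completing the 15 strongest were regions nearest to Zfp64, Fhl4, Phf20, Olfr314 and Gpbp1, with fold of 3.87 to 4.82 in mutant 1 and 3.83 to 4.72 in mutant 2. The one inside Phf20 had a wild-type peak 11 bp away in wild type 1 and 2777 bp away in wild type 2. Among the other 14, the closest wild-type peak was the one at Zfp64, 288 bp away.

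Among the 75 regions at gene ends, the strongest 10 had a lower fold of 2.72 to 4.02. At Zfp64, a zinc-finger gene on chromosome 2, the region from 168893235 to 168894598 covered an annotated end with fold 4.76 and 4.02 and lay 6196 and 288 bp from wild-type peaks. At Fhl4 it lay 59 bp from an end with fold 3.88 and 4.72. At Ldhb, the lactate dehydrogenase B gene, the region on chromosome 6 from 142490180 to 142490474 had fold 3.21 and 4.4, with wild-type peaks 6163 and 12698 bp away. Swi5, a gene of recombination repair, had fold 4.35 and 2.98. Those at Gm10130, Mup4, Serpina3g, Cttnbp2 and Serbp1 had a lower fold of 2.72 to 2.94. Of the genes named here, Serpina3g was the only one for which the overlap reached a RefSeq promoter window.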

How the data were processed

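ATAC-seq peak lists of 4 DN3 thymocyte libraries were used, with 2 libraries per genotype as given by the sample titles; 4 leukaemia samples were not analysed here. Per the submitters' processing notes, the authors used MACS2 2.1.1, Bowtie2 2.3.3.1, cutadapt 1.16 and SAMtools 1.7 with build mm10; for filters, peak settings and pooling, these sources state nothing. There was 1 list per library. The deposited lists hold, per peak, a fold ratio over background, −log10 p and −log10 q, and a score that follows the −log10 q, multiplied by 10 and cut to a whole number.

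Peaks on autosomes were merged at 1 bp overlap with pandas 2.3.3 and numpy 2.4.6 in Python 3.11.15; intervals used scipy 1.17.1 and figures matplotlib 3.10.9. Between 2.17% and 2.42% of peaks lay elsewhere and were left out, except that marker genes were read on all chromosomes, X included. Genes, promoters and hairpins are from RefSeq GRCm38.p6, the same coordinates as mm10, and all list genes matched. Gene ends count both ends of a gene. Distances are to the nearest end of a protein-coding gene. No test was run, because the calls chose the regions; intervals are exact (Clopper-Pearson) at 95%, treat regions as independent and cover counting error only, and the share that a count of 0 allows is 3 divided by the total. A genome sequence was not used here, so the planned motif and GC counts of region centres were not made, and the CTCF motif was not searched.

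The regions, gene lists and named sets were chosen with earlier results of these data known. Named were the 15 regions with the highest lower fold, all within 2 Mb downstream of Myc, the 5 clusters with most regions, the 3 widest, the 10 strongest at gene ends, up to 4 per gene list, the 3 nearest to the overlap limit on either side, the 3 highest and 3 lowest chromosomes, the 5 highest bins and the 5 genes nearest to most regions. Alternatives changed the peak threshold, the overlap, the equality of the lists, the cluster gap, the gene-end limit and the libraries used. Some regions that these rules name are not reported here. The merging and counting steps were checked on simulated lists.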

Additional observations from a re-analysis of the deposited data

How the results depend on the processing

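The count of 1813 and what follows from it depend on how a call is defined, in the mutant lists as well as in the wild-type lists. With peaks of −log10 q of 5 or more in all lists, 1294 regions were mutant-only (1.7%), and only 145 of the 1813 were among them; 32.8% lay outside genes, 7.34% in clusters and 7.42% beside another, 5 were downstream of Myc, the median lower fold was 3.03, the width 430 bp and the distance to wild type 3392.5 bp. At a fold of 3 or more the count was 775 (1.27%), with 89 of the 1813, and the same values were 33.8%, 1.94%, 4.39%, 4, 3.24, 508 bp and 4812 bp, with 5.42% at gene ends. None of the 10 regions downstream of Myc and none of the cluster regions of Ptprk and Themis, Slc9a9, Angpt1 or Cblb was a member at either threshold. In another setting the peaks of each list, mutant lists included, had to cover 50% of a region to count as a call. There the count was 6671 (7.38%), 49.6% in clusters, 23.1% beside another, 17 downstream of Myc, lower fold 2.66, width 479 bp and distance 0 bp. Of the 1813, 1378 were among them. With a wild-type peak within 500 bp counted as a call, the share was 1.51%, with 14% in clusters and a distance of 2346 bp.

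With 1 minimum peak length and 1 joining gap for all lists there were 2211 regions (2.17%), 21.5% in clusters and 10.8% beside another, at a distance of 2024 bp, and 1640 of the 1813 were among them. Equal numbers of top peaks per list gave 7235 (6.96%), 53.7% in clusters, 22.3% beside another, 23 downstream of Myc, width 293 bp and distance 2529 bp, and kept 1707. The share in clusters was 8.66% at gaps of 50 kb and 29.2% at 200 kb, that at gene ends 8.33% within 2 kb, and that outside protein-coding genes 37.6%. Fewer lists to meet means more members by construction: without mutant 1 the count was 4416, without mutant 2 4764, without wild type 1 3779 and without wild type 2 2651. Over these 4, the count ran from 2651 to 4764, the share from 2.53% to 4.06%, the share outside genes from 27.9% to 31.4%, at gene ends from 3.73% to 4.22%, in clusters from 23.9% to 39.8% and beside another from 11.2% to 15.6%. The count downstream of Myc ran from 12 to 21, the lower fold from 2.09 to 2.26, the width from 148 to 263 bp and the distance from 1401 to 2349 bp. The causes of these shifts were not tested, apart from the number of lists. No paired analysis was possible because the values are counts of shared peaks and come from no test. The lists give no depth, so weak regions near the caller's threshold cannot be told apart from regions missed in wild type.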
